A study of Mus musculus with 40 samples.

Results

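Mouse 3T3-F442A preadipocytes turned into adipocytes were set against mouse C2C12 myoblasts turned into myotubes, both at day 7 of differentiation. The 5 arrays were chosen by their titles, 3 of adipocytes and 2 of myotubes, out of 40 arrays of mouse cell lines, primary cells and tissues in the study. 3T3-F442A is a fibroblast-like line that stores fat after confluence, and C2C12 is a line derived from skeletal muscle satellite cells that fuses into multinucleated fibres. Per the labels, the adipocytes were held for 7 days after confluence in medium with 10% fetal calf serum and rosiglitazone, a drug of the thiazolidinedione class that activates the nuclear receptor PPAR gamma. The myotubes were held for 7 days after confluence in medium with 4% HS, a serum the labels give only by these letters, and no drug is named. Differentiation was judged by lipid droplets in the adipocytes and by polynucleated myotubes in the muscle cells. Cell line, fate, drug and serum therefore differed together and cannot be told apart. Each side is a single cell line, and nothing in the labels says that arrays of a group came from separate cultures. The p-values thus rest only on how far arrays of a group lie apart, a spread that may be technical. This spread was pooled over all 14 groups of the study. Its median over spots, as a residual SD, was 0.164 on a log2 scale. The median SD was 0.128 over the 3 adipocyte arrays and 0.127 over the 2 myotube arrays. An SD of so few arrays has a median below the true spread, so these 2 values do not show that the groups were tighter.

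4 groups on other arrays served for comparison. Their cultured members were 4 preadipocyte lines in low-density growth with 10% fetal calf serum (5 arrays: 3T3-L1 with 2, and 3T3-F442A, Ob1774 and Hgfu with 1 each) and C2C12 myoblasts in proliferation in the same serum (3 arrays). The tissue groups were collagenase-isolated adipocytes of inguinal white fat (3 arrays) and mechanically isolated tibialis muscle (2 arrays), with no strain, age or sex given in the labels. The source name of the proliferating C2C12 samples calls them a preadipocyte line, and they were grouped by their title. RNA was hybridized to nylon filters of 5760 spots as radioactively labelled cDNA, and the values below are normalized spot intensities in kilo-units (kU, 1000 intensity units). A difference is adipocytes minus myotubes on the scale log2(normalized intensity + 36.4 kU), given with its standard error, and this offset compresses the change of dim spots. A spot was called at a limma adjusted p under 0.05, with Benjamini-Hochberg adjustment over all 5760 spots.

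Adipocytes and skeletal muscle cells both arise from mesenchymal precursors. Adipocytes are built under PPAR gamma and C/EBP factors and take up fatty acids that lipoprotein lipase frees from circulating triglyceride, storing them in droplets coated by perilipins. Myoblasts leave the cell cycle under MyoD-family factors, which bind E-boxes, and then assemble sarcomeres of myosin, actin and troponin and the receptor for acetylcholine from motor nerves.

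Day 7 adipocytes differed from day 7 myotubes in 36 of 5760 spots (0.625%), of which 27 were higher (0.469%) and 9 lower (0.156%) in adipocytes. With each array's median as the scale in place of quantile normalization, 11 spots were called, 6 higher and 5 lower, and without any scaling between arrays 0 were called and 60 passed an unadjusted p under 0.05. With quantile normalization, at an unadjusted p under 0.05 there were 529 spots, and the 2 groups of arrays did not overlap in 1304 spots (22.6%), among them all 36 called. Of the called spots, 21 carry 1 gene symbol, 1 of which is a clone name, 1 carries the symbols of several genes, and 14 carry none. The 20 called genes fall into lipid and metabolic genes that were higher in adipocytes, sarcomere and nerve-muscle genes that were lower, and single genes of other kinds. With median scaling 8 of the 20 kept their call (Mt1, Snx9, Cp, Nfat5, Myl1, H19, Tnnc1 and C1qtnf3), and in a fit of the adipocyte and myotube arrays alone 6 did (Phtf2, Mt1, Fam135a, Myl1, H19 and Tnnc1). The median difference over all spots was -0.003 and the median standard error 0.149.

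**Figure D1:**
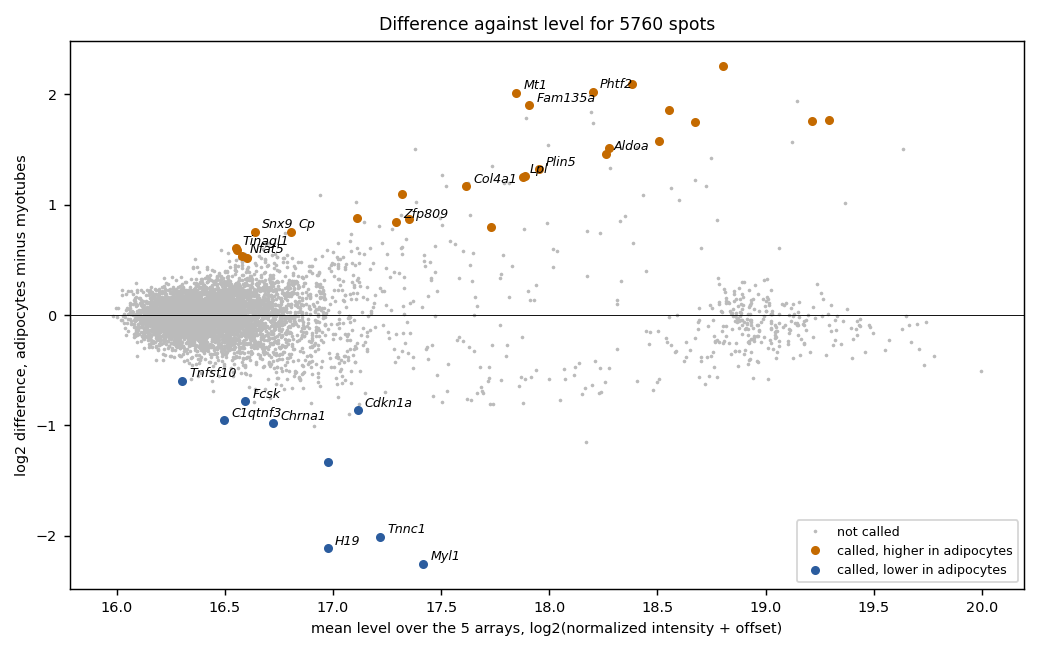
Log2 difference, adipocytes minus myotubes (vertical axis), against the mean log2 level over the 5 arrays (horizontal axis) for 5760 spots. Orange points are the 27 spots called higher and blue points the 9 called lower in adipocytes, and the 20 called genes are named. The 3 lowest points are Tnnc1, H19 and Myl1, at -2.01, -2.11 and -2.25.

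Whole-array measures of the 5 arrays varied within the groups. Before normalization, median intensity was 44.5 to 78.9 kU on adipocyte arrays and 28.3 and 62.7 kU on myotube arrays. Across all spots, log2 values correlated at 0.891 to 0.959 between adipocyte arrays and at 0.883 between the 2 myotube arrays. Myotube array 2 correlated at 0.912 to 0.917 with the adipocyte arrays, and myotube array 1 at 0.809 to 0.856, so that array 1 stands apart. Of the 20 called genes, 9 kept their call whichever of the 5 arrays was left out: Mt1, Plin5, Lpl, Col4a1, Myl1, H19, Tnnc1, Chrna1 and C1qtnf3. Without myotube array 1, 14 spots were called in all, and without myotube array 2, 154.

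The adipocyte and muscle labels were checked against defining markers. Of 9 adipocyte markers, 4 were measured (Lpl, Cidec, Retn and Pnpla2), and their summed intensity was 423 to 581 kU on adipocyte arrays against 270 to 281 kU on myotube arrays. Of 9 skeletal muscle markers, 4 were measured (Myl1, Tnnc1, Ckm and Atp2a1), and these summed to 249 to 275 kU against 903 to 1030 kU. The groups did not overlap in either sum. The gaps rest largely on Lpl (mean 309 kU in adipocytes against 107 kU in myotubes), Myl1 (57.3 against 415 kU) and Tnnc1 (51.5 against 320 kU). These genes are also among the called ones, so the sums are no separate check. Only Lpl of the first list and Myl1 and Tnnc1 of the second were called, and the master markers Adipoq, Fabp4, Myog and Des are among those not measured. Of 6 macrophage markers 5 were measured, with 0 called by limma, 0 at an unadjusted p under 0.05, and sums of 224 to 317 kU in adipocytes and 251 to 256 kU in myotubes. The 2 groups of arrays overlapped. A wider macrophage list had 7 measured genes and 0 called, and 1 of them, the chemokine gene Ccl9, had an unadjusted p under 0.05. Its arrays did not overlap, as in 22.6% of all spots, and its difference was 0.74 ± 0.32 (limma adjusted p = 0.46). Its part in the other differences was not tested. The endothelial marker Cdh5 and the erythroid marker Hbb-b1 were not called either. Timp2, the single measured fibroblast marker, had 230, 444 and 209 kU in adipocytes and 63.6 and 154 kU in myotubes, a difference of 1.19 ± 0.35 (limma adjusted p = 0.15), and its part in the other differences was not tested either.

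The lipid genes Lpl and Plin5 were higher in adipocytes, the called members among 10 measured genes of lipid handling. Lpl encodes lipoprotein lipase, and its spot read 329, 230 and 369 kU in adipocytes against 99 and 115 kU in myotubes. Every adipocyte array lay far above both myotube arrays, at least 230 against at most 115 kU. The difference was 1.25 ± 0.19 (limma adjusted p = 0.000191). Plin5, a perilipin of the lipid droplet surface, read 214, 350 and 468 kU in adipocytes and 104 and 116 kU in myotubes. The adipocyte arrays spread widely but did not overlap with the myotube arrays, and the difference was 1.32 ± 0.20 (limma adjusted p = 0.000139). With median scaling both values stayed above 0 but lost their call (Lpl 1.12, adjusted p = 0.207; Plin5 1.06, adjusted p = 0.552). In a fit of the 2 groups alone they were also not called (limma adjusted p = 0.0535 for Lpl and 0.179 for Plin5).

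The promoter of Plin5 is shown because the adipocytes were made with a PPAR gamma ligand and AGGTCA is the half-site that nuclear receptors of this class bind. In the RefSeq table of GRCm38.p6, the first of 2 Plin5 entries lies at chr17:56117499-56117798 on the minus strand, and capitals mark the match to AGGTCA on either strand. The half-site is in 16.3% of the 32851 promoters of this length in the table, and a match describes the letters only.
Plin5: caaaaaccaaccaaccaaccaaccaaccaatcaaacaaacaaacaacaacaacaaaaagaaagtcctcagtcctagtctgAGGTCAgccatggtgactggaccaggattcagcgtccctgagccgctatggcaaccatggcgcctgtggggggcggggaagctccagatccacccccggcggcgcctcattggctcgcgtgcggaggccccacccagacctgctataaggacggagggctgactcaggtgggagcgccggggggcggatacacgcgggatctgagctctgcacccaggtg

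Of 10 measured genes of lipid handling, 2 were called higher, 0 lower, and 9 had positive differences, with a median of 0.32 beside -0.003 over all spots. Pnpla2, the lipase that starts triglyceride breakdown, read 88.1, 73.8 and 75.1 kU in adipocytes and 50.5 and 55.4 kU in myotubes. These arrays did not overlap, as in 22.6% of all spots, but the difference of 0.37 ± 0.13 was not called (limma adjusted p = 0.293). Cav2 of the caveolae had 0.52 and Dgat1, the last step of triglyceride synthesis, -0.07, also without a call. Cidec, a droplet fusion protein, had a difference of 0.19 with a 95% interval of -0.24 to 0.61. Retn, the mouse adipokine resistin, read 43.3, 41.9 and 43.2 kU in adipocytes and 49.9 and 30.1 kU in myotubes. The groups overlapped, and the 95% interval of the difference ran from -0.29 to 0.41. Of 3 genes measured from the list of adipokines and secreted adipocyte proteins, Cp alone was called. The secreted protein gene C1qtnf3, outside this list, was called lower in adipocytes (-0.96 ± 0.14). Cp encodes ceruloplasmin, the copper-carrying ferroxidase of plasma, with 144, 85.6 and 91.5 kU against 38.7 and 57.5 kU and a difference of 0.75 ± 0.16 (limma adjusted p = 0.0163). It was not called without myotube array 1 (0.59) or adipocyte array 1 (0.57). Neither of 2 measured adipogenic regulators was called: Zfp423 had -0.24 and Gata3 -0.12.

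The contractile genes Myl1 and Tnnc1 were lower in adipocytes, the called members among 6 measured. Myl1, an alkali light chain of fast skeletal myosin, read 55.4, 56.3 and 60.1 kU in adipocytes against 347 and 482 kU in myotubes. The adipocyte arrays lay close together and the myotube arrays several times higher, and the difference was -2.25 ± 0.21 (limma adjusted p = 9.06e-09). Tnnc1, the calcium-binding troponin C of slow skeletal and cardiac muscle, read 38.0, 52.8 and 63.8 kU in adipocytes against 380 and 259 kU in myotubes. The groups were again far apart, with a difference of -2.01 ± 0.14 (limma adjusted p = 2.17e-11). Of 6 measured contractile genes these 2 fell and 0 rose, and the median of the 6 was -0.40. Mybph, a myosin-binding protein, had -0.53 ± 0.14 and was not called (limma adjusted p = 0.0698), and Csrp3 had -0.28, Myl3 -0.02 and Ldb3 0.16, also without a call.

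Chrna1, the alpha subunit of the muscle acetylcholine receptor, was the called gene among 7 of calcium handling and excitation. It read 50.1, 41.4 and 47.1 kU in adipocytes and 96.4 and 163 kU in myotubes. All adipocyte arrays lay below both myotube arrays, and the difference was -0.98 ± 0.16 (limma adjusted p = 0.000289). With median scaling it was -0.95 and not called (adjusted p = 0.0528), but it was called when the 3 arrays of ES cells without LIF, whose values are of another kind, were also left out (0.0350). Atp2a1, the calcium pump of fast muscle sarcoplasmic reticulum, read 69.4, 38.6 and 46.2 kU in adipocytes against 56.3 and 196 kU in myotubes. Only myotube array 2 was high, and the difference of -0.76 ± 0.20 was not called (limma adjusted p = 0.0749). Without myotube array 1 it was -1.42 and called (limma adjusted p = 2.44e-06), and without adipocyte array 1 it was -0.90 and called (0.0308). Ckm, muscle creatine kinase, read 98.6, 102 and 105 kU in adipocytes and 119 and 95.1 kU in myotubes, with a 95% interval of -0.56 to 0.46.

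The promoters of these 3 called muscle genes are printed because the genes were low together in adipocytes and MyoD-family factors bind E-boxes, CANNTG. Capitals mark each match to CANNTG, which reads the same on both strands. The RefSeq entries in GRCm38.p6 lie at chr1:66945007-66945306 on the minus strand for Myl1, chr14:31208062-31208361 on the plus strand for Tnnc1 and chr2:73580289-73580588 on the minus strand for Chrna1. They hold 1, 2 and 3 matches.
Myl1: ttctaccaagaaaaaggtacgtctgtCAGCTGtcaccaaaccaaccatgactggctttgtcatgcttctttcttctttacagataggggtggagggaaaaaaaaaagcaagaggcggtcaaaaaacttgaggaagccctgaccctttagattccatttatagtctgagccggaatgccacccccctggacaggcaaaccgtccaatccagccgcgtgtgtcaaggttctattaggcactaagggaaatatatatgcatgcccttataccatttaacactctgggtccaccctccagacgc
Tnnc1: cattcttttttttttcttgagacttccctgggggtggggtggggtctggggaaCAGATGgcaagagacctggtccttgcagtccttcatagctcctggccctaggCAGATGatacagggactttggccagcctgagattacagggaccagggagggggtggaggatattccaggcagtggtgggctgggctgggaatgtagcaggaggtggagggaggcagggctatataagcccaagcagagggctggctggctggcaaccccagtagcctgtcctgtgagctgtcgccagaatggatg
Chrna1: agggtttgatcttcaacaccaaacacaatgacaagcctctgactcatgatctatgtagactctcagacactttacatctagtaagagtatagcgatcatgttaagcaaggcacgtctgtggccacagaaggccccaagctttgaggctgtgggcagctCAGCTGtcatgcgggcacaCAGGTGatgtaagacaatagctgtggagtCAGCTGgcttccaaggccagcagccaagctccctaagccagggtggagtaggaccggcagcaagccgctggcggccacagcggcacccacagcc

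Such a match is in 72.3% of all 32851 promoters, and the stricter CAGCTG in 16.3%. Of the 20 called genes, 16 had a promoter in the table, and Lpl, H19, Fcsk and Snx9 did not. Some genes have several promoter entries, and over any entry CANNTG was found for 7 of the 10 genes higher in adipocytes and 6 of the 6 lower. CAGCTG, which is a form of the first motif, was found for 3 of the 10 and 3 of the 6. With only the first entry of each gene, the counts were 6 and 1 of the 10 higher genes, and again 6 and 3 of the 6 lower genes. A MEF2 motif, also searched, is in 3.19% of all promoters. Over any entry it was found for 1 of the 10 higher genes and 0 of the 6 lower genes, and with only the first entry for 0 of the 10 and 0 of the 6. These are counts of letters in few genes and were not tested.

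**Figure D2:**
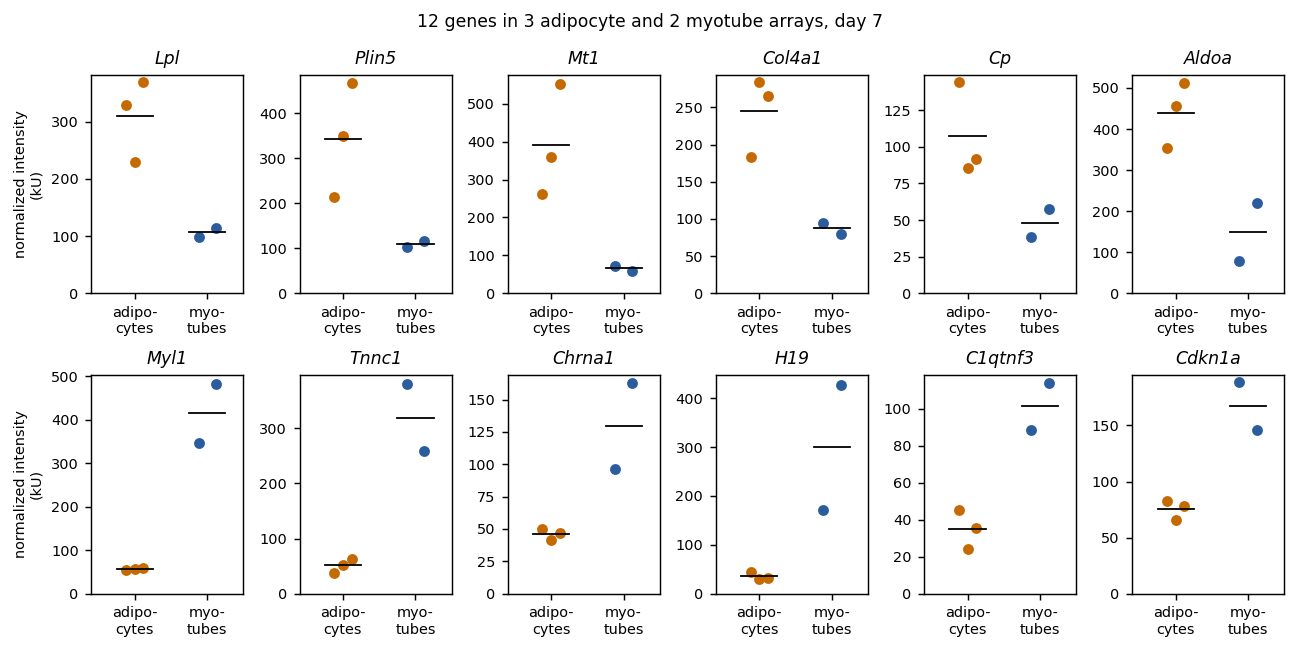
Normalized intensity in kU (vertical axes, from 0) for 12 called genes, with 1 point per array and a bar at the mean. The 3 adipocyte arrays are orange and on the left, and the 2 myotube arrays are blue and on the right. In the upper panels all adipocyte points lie above the myotube points (Lpl at least 230 against at most 115 kU). In the lower panels all lie below (Myl1 at most 60.1 against at least 347 kU). Called genes were named only where the arrays did not overlap, so this separation adds no support.

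Among 9 measured regulators of muscle formation, H19 and Cdkn1a were lower in adipocytes and 0 were higher. H19, an imprinted long non-coding RNA that is abundant in fetal muscle, read 45.3, 29.2 and 32.5 kU in adipocytes against 171 and 428 kU in myotubes. The 2 myotube arrays lay far apart, yet both exceeded all adipocyte arrays, and the difference was -2.11 ± 0.24 (limma adjusted p = 7.18e-07). In a fit of the adipocyte and myotube arrays alone it was called (limma adjusted p = 0.0435). Cdkn1a, the cell-cycle inhibitor p21, read 83.0, 65.5 and 77.9 kU in adipocytes and 189 and 146 kU in myotubes. That difference was -0.86 ± 0.19 (limma adjusted p = 0.0149), and it was not called without myotube array 1 (-0.71) or adipocyte array 2 (-0.80). Igf2, which lies in the same imprinted cluster as H19, had -0.08, and the imprinted gene Peg3 had -0.13, both without a call. Of 11 measured cell cycle genes, limma called 0, none had an unadjusted p under 0.05, and the median was -0.06.

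3 further genes were lower in adipocytes. C1qtnf3, a secreted protein of the C1q and TNF family, read 45.2, 24.3 and 35.5 kU in adipocytes against 88.8 and 114 kU in myotubes, a difference of -0.96 ± 0.14 (limma adjusted p = 8.93e-05). Fcsk, fucose kinase, read 38.5, 47.3 and 44.2 kU against 130 and 76.6 kU, a difference of -0.78 ± 0.14 (limma adjusted p = 0.00192). Tnfsf10, the death ligand TRAIL, read 37.9, 30.5 and 28.3 kU against 74.7 and 59.9 kU, a difference of -0.60 ± 0.13 (limma adjusted p = 0.0163). In all 3 genes every adipocyte array was below both myotube arrays, as the naming rule required. Fcsk was not called without myotube array 1 (-0.51). Tnfsf10 was not called without myotube array 1 (-0.49), adipocyte array 2 (-0.58) or adipocyte array 3 (-0.55).

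The metallothionein gene Mt1, whose product binds zinc and copper, was higher in adipocytes. It read 263, 359 and 552 kU in adipocytes and 72.5 and 59.4 kU in myotubes. The lowest adipocyte array was well above the higher myotube array, and the difference was 2.01 ± 0.32 (limma adjusted p = 0.000289). Mt1 kept its call in every alternative except those without any scaling between arrays. Of 6 measured genes of metal binding and oxidative stress it was the 1 called, and the median was 0.20. Its promoter is shown because metallothionein genes are induced through the metal response element TGCNCNC, marked in capitals, which occurs 3 times at chr8:94178839-94179138 on the plus strand (RefSeq, GRCm38.p6). At least 1 match on either strand is in 51.0% of all 32851 promoters. Over any entry a match was found for 8 of the 10 higher and 2 of the 6 lower genes with a promoter. With only the first entry of each gene, the counts were 7 of the 10 and 2 of the 6. The Col4a1 promoter and 1 Tinagl1 entry also hold 3 matches, so this number is not particular to Mt1.
Mt1: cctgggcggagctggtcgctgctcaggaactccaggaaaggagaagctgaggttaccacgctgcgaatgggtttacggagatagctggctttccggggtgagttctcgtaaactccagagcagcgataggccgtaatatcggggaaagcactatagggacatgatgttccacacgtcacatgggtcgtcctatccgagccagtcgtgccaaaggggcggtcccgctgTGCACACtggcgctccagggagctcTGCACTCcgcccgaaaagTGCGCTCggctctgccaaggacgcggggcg

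Of 8 measured genes of glycolysis and related pathways, 1 rose and 0 fell, with a median of 0.04. Aldoa, the aldolase of muscle and many growing cells, read 353, 456 and 511 kU in adipocytes against 78.5 and 219 kU in myotubes. The 2 myotube arrays differed more than the adipocyte arrays did, and the difference of 1.46 ± 0.34 (limma adjusted p = 0.0264) was not called without myotube array 1 (0.89), adipocyte array 2 (1.43) or adipocyte array 3 (1.36). Eno3, the muscle form of enolase, read 107, 57.1 and 74.5 kU in adipocytes against 162 and 164 kU in myotubes. It was lower in every adipocyte array (22.6% of all spots separated in either direction), but the difference of -0.81 ± 0.21 was not called (limma adjusted p = 0.0644). Without adipocyte array 1 it was -0.97 and called (limma adjusted p = 0.0205). Pfkp, a phosphofructokinase, had 0.49 and Pygm, muscle glycogen phosphorylase, -0.29, both without a call.

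Of 10 measured matrix genes Col4a1 alone was called. Col4a1, a chain of basement membrane collagen, read 184, 284 and 266 kU in adipocytes and 94.9 and 80.0 kU in myotubes. Each adipocyte array was above both myotube arrays, with a difference of 1.16 ± 0.18 (limma adjusted p = 0.000179). With median scaling it was 1.17 and not called (adjusted p = 0.207), but it was called when the 3 arrays of ES cells without LIF were also left out (0.0254). Elastin, Eln, read 57.6, 52.1 and 61.1 kU in adipocytes and 259 and 81.9 kU in myotubes, and its difference of -1.0 ± 0.26 was not called (limma adjusted p = 0.0698). Tinagl1, a matrix protein outside this list, read 58.4, 85.5 and 90.0 kU in adipocytes and 29.4 and 48.3 kU in myotubes, a difference of 0.60 ± 0.15 (limma adjusted p = 0.0475). It was not called without myotube array 1 (0.42), adipocyte array 2 (0.55) or adipocyte array 3 (0.53).

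Phtf2 and Fam135a, genes with no well-known role in either cell type, were also higher in adipocytes. Phtf2 read 346, 589 and 578 kU in adipocytes and 90.3 and 96.8 kU in myotubes, a difference of 2.02 ± 0.47 (limma adjusted p = 0.0288). Fam135a read 277 to 446 kU on the 3 adipocyte arrays against 54.2 and 101 kU on the myotube arrays, a difference of 1.90 ± 0.45 (limma adjusted p = 0.0364). Neither gene overlapped between the groups, as the naming rule required. Phtf2 lost its call without myotube array 1 (1.99), myotube array 2 (2.06), adipocyte array 2 (1.90) or adipocyte array 3 (1.91). Fam135a lost its call without myotube array 1 (1.6), adipocyte array 1 (1.79) or adipocyte array 2 (1.80). The remaining called genes were Zfp809, a zinc finger protein that silences retroviral DNA, with 0.85 ± 0.16 (limma adjusted p = 0.00447), and the sorting nexin gene Snx9 of endocytosis, with 0.75 ± 0.15 (limma adjusted p = 0.00638). Nfat5, a transcription factor of the response to osmotic stress, had 0.53 ± 0.13 (limma adjusted p = 0.0364). None of these 3 overlapped between the groups, which was a condition for naming them. Zfp809 lost its call without myotube array 1 (0.73) or adipocyte array 2 (0.68), and Snx9 without the same arrays (0.64 and 0.71). Nfat5 lost its call without myotube array 1 (0.66), myotube array 2 (0.41), adipocyte array 2 (0.42) or adipocyte array 3 (0.49).

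Of 669 genes on 20 lists of pathways and cell types, 134 were measured, 6 of them called higher and 5 lower (8.21% of those measured). The lists were chosen with earlier results of these data known, so the excess over 0.625% of all spots is no independent evidence. Among 18 genes of oxidative phosphorylation and the citric acid cycle, 6 of fatty acid oxidation and peroxisomes, 8 ribosomal protein genes and 6 chaperone genes, limma called 0, with medians of -0.01, 0.13, -0.06 and -0.01. At an unadjusted p under 0.05 there were 5, 0, 1 and 2 of them. Among 10 genes of the actin cytoskeleton and 4 of sterol synthesis, limma called 0, with medians of -0.04 and 0.13, and 1 and 2 had an unadjusted p under 0.05. Fdps of sterol synthesis had 1.03 ± 0.32 (limma adjusted p = 0.198). Without scaling the median of all spots was 0.27, and the medians of the oxidative phosphorylation, ribosomal, chaperone and actin lists were 0.37, 0.53, 0.39 and 0.31. In RNA from whole cultures, fewer cells of a type and less RNA per cell cannot be told apart.

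**Figure D3:**
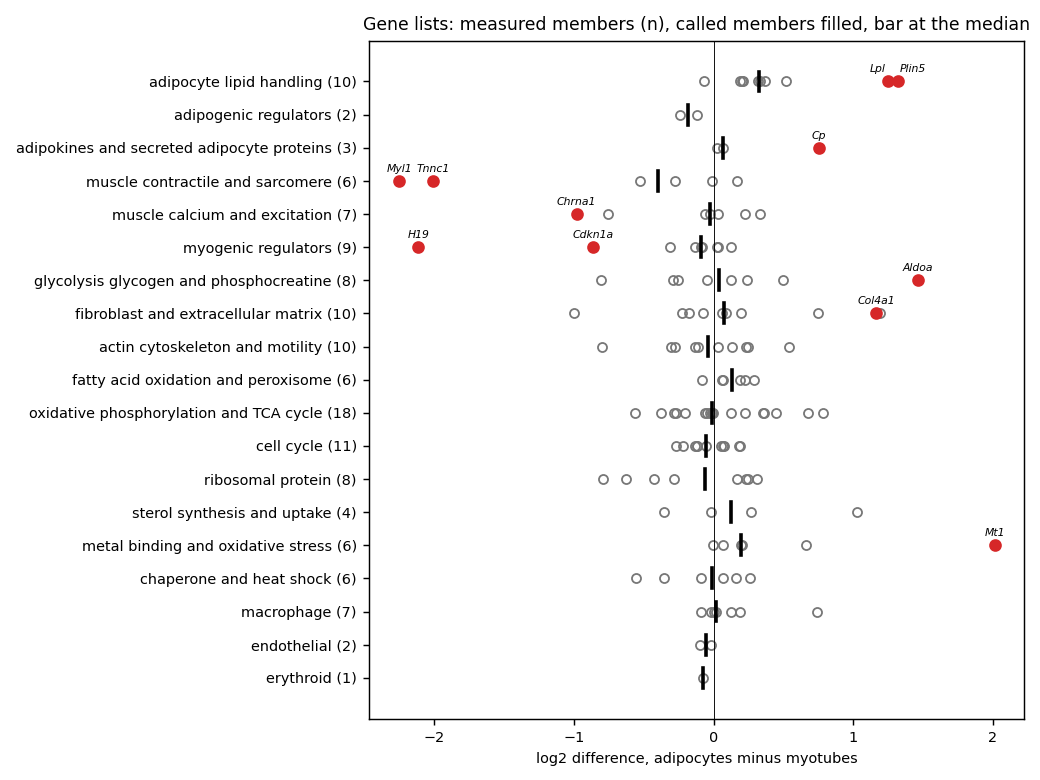
Log2 difference, adipocytes minus myotubes (horizontal axis), for each measured member of 19 gene lists, with the number measured in brackets. Filled red points are called and named, open points are not called, and the black bar is the list's median. Myl1 (-2.25), H19 (-2.11) and Tnnc1 (-2.01) lie far to the left, while the bars of most lists lie near 0.

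To see which differences were already present in growing cells, the same 20 genes were compared between preadipocyte lines and proliferating C2C12. In that comparison 11 of 5760 spots were called (0.191%), 0 higher and 11 lower in preadipocyte lines, while at an unadjusted p under 0.05 limma gave 267 higher and 264 lower. H19 was one of them, at 31.9 to 52.3 kU in the 5 preadipocyte arrays against 193 to 457 kU in the 3 proliferating C2C12 arrays. The difference of -2.12 ± 0.20 (limma adjusted p = 2.60e-08) stands beside -2.11 at day 7. Fcsk was lower too, with 33.7 to 66.9 kU against 99.1 to 113 kU and a difference of -0.73 ± 0.12 (limma adjusted p = 0.00141). The other 18 genes were not called. Myl1 had -0.30 ± 0.17 and Tnnc1 -0.20 ± 0.12, and the values for Lpl (-0.19 ± 0.16), Plin5 (-0.16 ± 0.17) and Mt1 (-0.31 ± 0.27) were below 0. Eno3, not called at day 7, was lower in preadipocyte lines, at -1.05 ± 0.17 (limma adjusted p = 0.00141), but not without proliferating C2C12 array 2 (-0.78, adjusted p = 0.0738).

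The difference at day 7 minus the difference in growing cells was tested in the same fit, and 15 of 5760 spots were called (0.26%), 11 higher (0.191%) and 4 lower (0.0694%). Of these 15 spots 7 carry a gene. Myl1 had -1.95 ± 0.27 (limma adjusted p = 0.000101), Tnnc1 -1.80 ± 0.19 (3.43e-07) and C1qtnf3 -0.95 ± 0.18 (0.00551). On the higher side were Mt1 with 2.32 ± 0.42 (limma adjusted p = 0.00284), Plin5 with 1.48 ± 0.26 and Lpl with 1.44 ± 0.25 (both 0.00228). The differences between the lineages in these 6 genes were thus larger at day 7 than in growing cells. Line and drug on the adipocyte side, serum on the muscle side and confluence on both changed together with stage. Their parts were not tested. The test also shares its day 7 arrays with the comparison in which these 6 genes were called, so it is no independent support. Copz2, a coatomer subunit of vesicle traffic, had 2.42 ± 0.47 (limma adjusted p = 0.00594). For H19 the day 7 difference exceeded that in growing cells by 0.01, with a 95% interval of -0.62 to 0.64, and for Fcsk by -0.06, with an interval of -0.43 to 0.32. With median scaling Tnnc1 was the 1 spot called, and with each array's 5th percentile subtracted 1 spot was called, which was none of these 7 genes.

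Copz2 is an example in which the order of the lineage means differed between stages, though the lineage difference was not called at either stage. At day 7 it read 253, 626 and 535 kU in adipocytes and 121 and 285 kU in myotubes, overlapping and not called (1.09 ± 0.36, limma adjusted p = 0.234). In growing cells it read 130 to 244 kU in preadipocyte lines and 383 to 688 kU in C2C12, with no overlap and a difference of -1.33 ± 0.30 that just missed the call (limma adjusted p = 0.0503). Without myotube array 1 the change between stages was 1.90 and not called.

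Within each lineage, day 7 cells were set beside growing cells for the same 20 genes. These values share arrays with the day 7 comparison and are given beside each other only. On the adipocyte side the growing cells were 4 lines, and the line of the adipocytes itself had a single array among them. Line therefore differed together with stage, confluence and drug on that side, and its part was not tested. Among the 4 growing lines, Phtf2 ranged from 282 to 819 kU, Lpl from 71.4 to 124 kU and Cp from 46.8 to 54 kU. Between adipocytes and preadipocyte lines limma called 6 of the 20, between myotubes and proliferating C2C12 it called 4 others, and 10 were called on neither side. The 6 had differences of 1.40 ± 0.16 (Lpl), 1.47 ± 0.28 (Aldoa), 1.24 ± 0.27 (Mt1), 1.03 ± 0.17 (Plin5), 0.90 ± 0.15 (Col4a1) and 0.70 ± 0.14 (Cp), with limma adjusted p at most 0.0424. From proliferating C2C12 to myotubes the same genes had -0.03, -0.39, -1.08, -0.45, -0.07 and -0.02, none of them called. The 4 called on the muscle side were Myl1 (2.10 ± 0.21), Tnnc1 (1.92 ± 0.14), C1qtnf3 (0.76 ± 0.14) and Phtf2 (-2.17 ± 0.47), with limma adjusted p at most 0.0323. Their values on the adipocyte side were 0.14, 0.12, -0.19 and -0.01. Fam135a had 0.65 ± 0.38 and -1.45 ± 0.45 and H19 -0.08 ± 0.20 and -0.09 ± 0.24, without a call on either side.

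**Figure D4:**
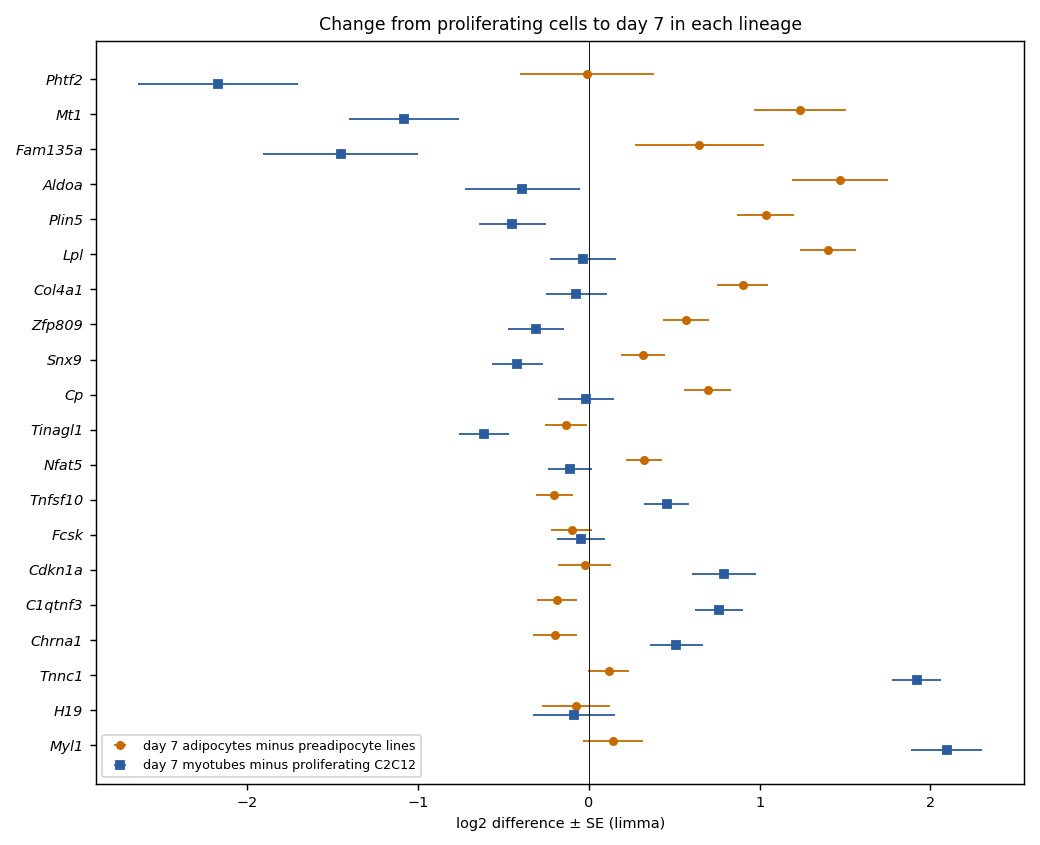
Log2 difference ± SE (horizontal axis) of the 20 called genes, day 7 cells minus growing cells. Orange circles are adipocytes of a single line minus 4 preadipocyte lines, and blue squares are myotubes minus proliferating C2C12. Lpl lies at 1.40 and -0.03, Myl1 at 0.14 and 2.10, Phtf2 at -0.01 and -2.17, and H19 near 0 in both.

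The tissue counterparts, inguinal adipocytes and tibialis muscle, gave 22 called spots of 5760 (0.382%), 6 higher (0.104%) and 16 lower (0.278%) in inguinal adipocytes. Myl1 was lower in fat as in culture, with 57.8, 65.9 and 51.0 kU in inguinal adipocytes against 734 and 694 kU in tibialis muscle, a difference of -2.99 ± 0.21 (limma adjusted p = 3.15e-12). Tnnc1 had -0.35 ± 0.14 and was not called (limma adjusted p = 0.999): its level was 69.0 ± 20.3 kU in tibialis muscle and 320 ± 85.4 kU in myotubes (SD, n = 2 each). Aldoa went the other way from culture, with 68.4, 136 and 78.3 kU in inguinal adipocytes against 495 and 290 kU in tibialis muscle. That difference was -1.71 ± 0.34 (limma adjusted p = 0.00605), and it was -1.36 and not called without tibialis array 1. H19 had -0.88 ± 0.24 and was not called (limma adjusted p = 0.129), and Lpl had 0.38 and Plin5 0.09, also without a call.

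Several muscle and fat genes that were not called in culture were called between the tissues. Atp2a1 had -3.26 ± 0.20 (limma adjusted p = 1.40e-13), Pygm -2.09 ± 0.12 (1.24e-14) and Eno3 -1.83 ± 0.21 (4.31e-07). Retn read 117, 145 and 89.2 kU in inguinal adipocytes against 41.4 and 40.7 kU in tibialis muscle, a difference of 0.97 ± 0.17 (limma adjusted p = 0.00154). It was thus high in tissue adipocytes and at 41.9 to 43.3 kU in 3T3-F442A adipocytes. Pnpla2 had 0.62 ± 0.13 (limma adjusted p = 0.012), a call that was lost without tibialis array 1 (0.68) or 2 (0.56) or inguinal array 2 (0.46) or 3 (0.59). Ckm read 99.7 to 177 kU in inguinal adipocytes, below the 251 and 248 kU in tibialis muscle, but its difference was not called.

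Of the 27 spots called higher at day 7, 14 had the same sign between growing cells and 15 between tissues. Between growing cells 0 of the 27 were called in the same direction and 1 in the opposite one. Between tissues 1 was called in the same direction and 1, Aldoa, in the opposite one. Of the 9 called lower, 8 had the same sign between growing cells, 2 of them called, and 9 between tissues, 1 of them called. In the opposite direction 0 of these 9 were called in either comparison. Over all spots the sign was the same in 48.5% and 49.5%. Across 5760 spots, differences at day 7 correlated with those in growing cells at -0.084 and with those between tissues at -0.014 (Pearson), as a description in which each comparison has its own arrays. The spots called higher in adipocytes thus had the same sign on other arrays about as often as all spots did.

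**Figure D5:**
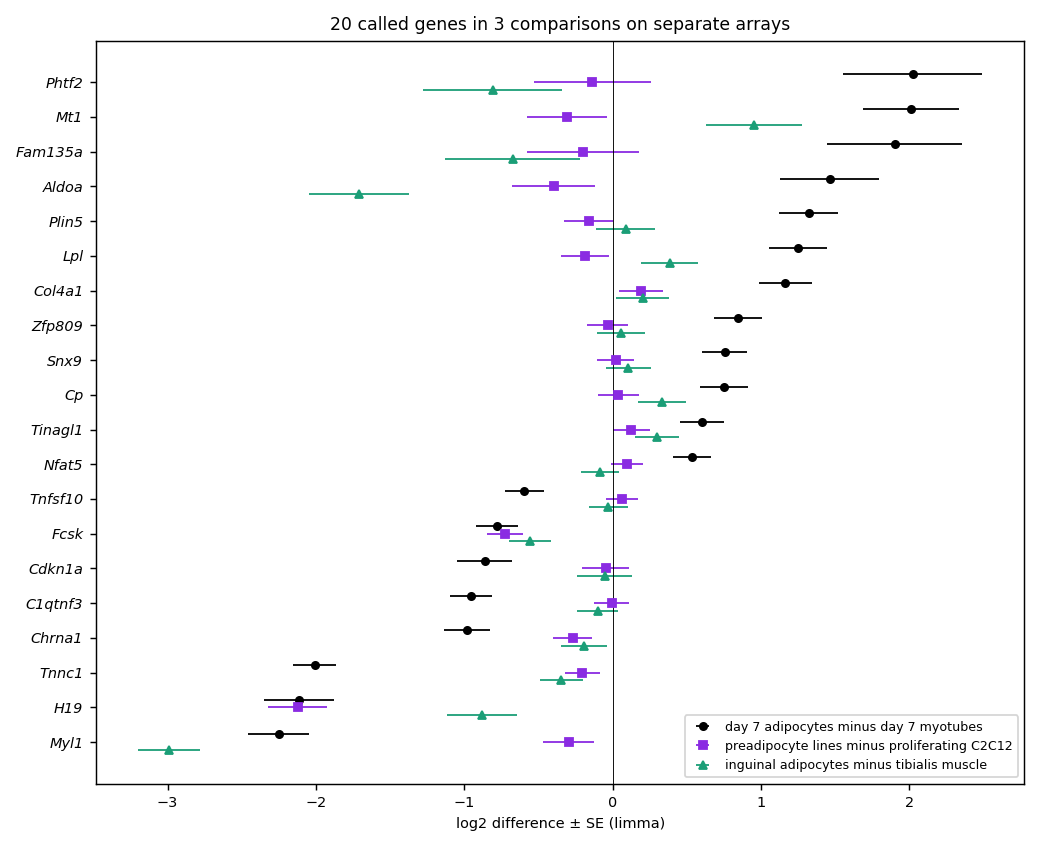
Log2 difference ± SE (horizontal axis) of the 20 called genes at day 7 (black circles), between preadipocyte lines and proliferating C2C12 (purple squares) and between inguinal adipocytes and tibialis muscle (green triangles), each on its own arrays. H19 lies at -2.11 and -2.12 in the first 2 comparisons, Myl1 at -2.25 and -2.99 in culture at day 7 and in tissue, and Aldoa at 1.46 and -1.71.

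Across all 14 groups of the study, the adipocyte-side genes differed in where else they were high. Lpl averaged 309 ± 71.7 kU in 3T3-F442A adipocytes, the top of the 14 groups, followed by inguinal adipocytes with 179 ± 48.9 kU and peritoneal macrophages with 163 ± 20.9 kU (SD, n = 3 each). The ranges of the last 2 groups overlapped, at 123 to 211 and 139 to 179 kU. Plin5 was also highest in 3T3-F442A adipocytes (344 ± 127 kU), and its inguinal adipocyte level of 149 ± 19 kU had rank 6 (SD, n = 3 each). Mt1 at 391 ± 147 kU and Col4a1 at 244 ± 53.2 kU were highest there too, with cultured stroma-vascular cells of inguinal fat next, at 232 ± 54.8 and 153 ± 9.59 kU (SD, n = 3 each). For Mt1 the ranges of these 2 groups overlapped, at 263 to 552 and 179 to 288 kU. Zfp809, Snx9 and Nfat5 were highest in 3T3-F442A adipocytes as well, each with a range that overlapped with that of another group. Cp was highest in liver, at 161 ± 40.0 kU (SD, n = 2), before 3T3-F442A adipocytes at 107 ± 32.1 kU (SD, n = 3), with overlapping ranges.

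Myotubes held the top level of the 14 groups for Tnnc1, Chrna1, Cdkn1a, C1qtnf3 and Tnfsf10. For Tnfsf10 their range of 59.9 to 74.7 kU overlapped with that of Raw 264 cells, 40.9 to 72.1 kU. C1qtnf3 averaged 102 ± 18.1 kU in myotubes (SD, n = 2), and the next group, the mesenchymal line C3H-10T1/2, averaged 53.5 ± 2.66 kU (SD, n = 3), without overlap. For Chrna1 the next were tibialis muscle at 80.2 kU and proliferating C2C12 at 78.9 kU, and the range of proliferating C2C12, 63.0 to 101 kU, overlapped with that of myotubes. H19 was highest in proliferating C2C12, at 310 ± 134 kU (SD, n = 3), and in myotubes, at 300 ± 182 kU (SD, n = 2), with overlapping ranges and 3T3-F442A adipocytes the lowest of all groups at 35.7 ± 8.47 kU (SD, n = 3). Phtf2 and Fam135a had their lowest level of all 14 groups in myotubes, at 93.5 ± 4.56 and 77.6 ± 33 kU (SD, n = 2), while 3T3-F442A adipocytes had ranks 4 and 3.

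The 14 called spots without a gene symbol are unnamed here and are given by their values. In 13 of them adipocytes were higher, with differences of 0.59 to 2.26, and in 1 adipocytes were lower, at -1.33. The spot with the highest difference read 862, 881 and 723 kU in adipocytes and 86.5 and 224 kU in myotubes.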

How the data were processed

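The deposited values are linear spot intensities of 40 nylon filter arrays with 5760 spots, 1 labelled sample per filter. The software version and any background correction or scaling were not given in the sources used here. Tripure-extracted, DNase-treated RNA was, per the labels' protocols, labelled as 33P cDNA, hybridized to Resgen filters and quantified with Imagene. The lowest intensity on 37 arrays was 7675, so a background may remain in the values and differences may be compressed. The 3 arrays of ES cells without LIF hold values with decimals and of another range. Array number, not read depth, limits the precision.

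Samples were grouped by title, the preadipocyte lines by source name. Intensities were quantile normalized over the 40 arrays, the offset of 36.4 kU (kilo-units) (the 10th percentile of all normalized intensities) was added and log2 taken. The 2 arrays of 3T3-L1 were averaged. All 14 groups entered 1 limma 3.58.1 fit in R 4.3.3 (25 residual degrees of freedom, two-sided, Benjamini-Hochberg adjustment over 5760 spots), so standard errors rest on the spread of all groups. The scripts were tested on simulated data. Intervals are 95% intervals of this fit.

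Platform annotation gives 1 symbol for 3420 spots, several for 98 and none for 2242. Of the 3420, 3346 matched the GRCm38.p6 gene table, used for names; together they name 3284 genes. In lists a gene is represented by its brightest spot. Promoters span 250 bases before to 50 after a start (RefSeq, GRCm38.p6); motifs were searched on both strands. Plots used Python 3.11.15 and matplotlib 3.10.9.

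Named genes were up to 15 called per direction whose arrays do not overlap, clone names excepted; from each list the 4 of smallest p and any called; and up to 6 per direction in the difference of differences. Other list members are named as examples, chosen after their values were seen. The comparison, members and lists were chosen with earlier results of these data known. Alternatives were other scalings, offsets, background and local-trend corrections, bright spots only, other sets of arrays, another variance model, a replicate block and leaving out each array. Leaving out the ES arrays together with another scaling was added after seeing the data.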

Additional observations from a re-analysis of the deposited data

Results flagged for a closer look

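The difference between the lineages changed from growing cells to day 7, by a test of that change in the limma fit, in 7 genes. Line, drug, serum and confluence changed together with stage, and their parts were not tested. Copz2 changed by 2.42, Mt1 by 2.32, Plin5 by 1.48 and Lpl by 1.44 toward adipocytes. Myl1 changed by -1.95, Tnnc1 by -1.80 and C1qtnf3 by -0.95. These calls held without each single array in turn, except for Copz2 without myotube array 1. With median scaling, of these genes, Tnnc1 alone was called, and without scaling or with the 5th percentile subtracted none of the 7 was called.

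Among the 4 preadipocyte lines, Cdkn1a read 122 kU in Ob1774 and 64.1 to 66.2 kU in the other lines, a gap larger for its range than Dixon's limit for 4 values. Chance alone passes this limit in about 1 of 20 groups, and 20 genes were examined.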

How the results depend on the processing

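Precision is limited by 2 or 3 arrays a group. For day 7 adipocytes against myotubes, 36 spots were called, and 11 with median scaling, 0 without scaling (limma; 60 at an unadjusted p under 0.05), 20 with each array's 5th percentile subtracted and 15 with only the compared groups. For growing cells the count of 11 was 2, 1 and 2 under the first 3 of these and 19 with a local trend removed. For tissues the count of 22 was 11, 6, 12 and 13 under the first 4. For the change of the difference the count of 15 was 1, 0 (115 at an unadjusted p under 0.05) and 1 under the first 3, and 27 with a local trend removed. Without the arrays of ES cells without LIF as well, which was tried after seeing the data, median scaling gave 13, 2, 14 and 1 spots in these comparisons, no scaling 0 (88 at an unadjusted p under 0.05), 1, 8 and 0 (176), and subtraction 12, 1, 12 and 0 (505). The cause of these shifts was not tested. Counts without 1 array ran from 14 to 154, from 4 to 15, from 14 to 29 and from 10 to 129, and the highest of the first and last came without myotube array 2.

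The labels do not say whether arrays of the same replicate number belong together. Arrays of the same number correlated at 0.2 and 0.217 in their deviations from the group mean, over 2 pairs. With 2 myotube arrays these deviations mirror each other, so crossed numbers gave -0.2 and -0.217 by construction. The 2 pairs are therefore not independent and cannot decide whether the numbers pair arrays. With the replicate number as a block, in a fit of the compared groups alone, 14 spots were called at day 7 and 48 between tissues. Of the 20 called genes 5 kept their call with this block, against 6 in the same fit without it: H19 lost its call, at -2.09 with the block (adjusted p = 0.177). No paired analysis was possible for growing cells and the change of the difference because the preadipocyte arrays carry no shared replicate numbers in the labels.

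Of the 20 called genes, limma kept 8 with median scaling, 0 without scaling, 6 with the compared groups alone and 20 with a local trend removed. Only values that were not called turned sign. Ckm was 0.307 with median scaling, 0.624 without scaling and -0.17 to 0.071 without 1 array. Without scaling, Csrp3 was 0.049, Rpl30 0.009 and Hspb8 0.061. Without the ES arrays as well, Ckm was 0.305 and 0.605, and the other genes 0.047, 0.002 and 0.056. Without 1 array, Cfl2 ran from -0.744 to 0.125 and Retn from -0.124 to 0.253, with the turned sign without myotube array 2.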
